A study of Rattus norvegicus with 12 samples.

Results

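Krt7, Krt19, Epcam, Sox9, Spp1, Ggt1, Afp, Cd24 and Vim, a set of bile duct and hepatocyte dedifferentiation markers, were described in rat primary hepatocytes exposed to triclosan or to a structurally similar chemical. The 9 genes were found by matching the RefSeq transcript given for each array probe to a gene symbol, out of 39001 genes or transcripts on the array. All 9 were matched, by 14 probes. Of these genes, 7 passed the filter on dim probes and were tested, whereas Krt19 and Spp1 did not pass it.

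The cells were cryopreserved hepatocytes of male Sprague Dawley rats, kept in culture for 24 h and then exposed for 24 h. The groups were 30 µM triclosan, 30 µM diclosan, 30 µM 1-chloro-3-(4-chlorophenoxy) benzene (CCPB) and the DMSO vehicle, with 3 arrays each. Triclosan and diclosan are chlorinated diphenyl ethers with a phenolic hydroxyl, and diclosan carries fewer chlorines. CCPB is a chlorinated diphenyl ether without that hydroxyl, and it also differs from diclosan in the position of a chlorine. The series describes the replicates as independent experiments, but whether they came from separate animals or cell lots was not given in the sources used here, so the p-values cover the spread between these arrays.

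In the adult liver Krt7, Krt19, Epcam, Sox9 and Spp1 mark the bile duct epithelium, or cholangiocytes, and the progenitor cells of the ductules. Hepatocytes that lose their mature state, in injured liver or in culture on plastic, can take up some of these genes together with the fetal protein Afp, the surface markers Cd24 and Ggt1 and the mesenchymal filament protein Vim. Notch and YAP signalling are known to drive hepatocytes toward the biliary state in mice.

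Levels are given on the log2 scale as the signal of a probe relative to the 75th percentile of its array, so that 0 is the level of that percentile. Probes differ in how brightly they bind, so the level of a probe was compared between groups and not with that of another probe. The exceptions are the choice of the brightest probe of a gene and the summed signals of cell marker lists, which depend on that brightness. A signal counted as detected where the scanner software had marked it as well above background. The 12 arrays detected between 51.6% and 55.5% of all probes, and no spot was saturated. Slide 1 carried the triclosan and DMSO arrays and diclosan replicates 1 and 2. Slide 2 carried the CCPB arrays and diclosan replicate 3, and each slide was a scan run of its own. CCPB therefore shared no slide with DMSO or with triclosan, and a correction for the slide rested on the diclosan arrays alone. The hepatocyte products Alb and Ttr were detected on all 12 arrays. Of 26 listed bile duct genes on the array, Epcam and Sox9 among them, 19 to 20 were above background on each array. In contrast, Krt19, Spp1, Cftr, Cldn7 and Tspan8 were above it on none. In bulk RNA, detection of a listed gene does not show which cells made it.

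Of the 7 tested genes, 6 differed between CCPB and DMSO, and none differed between triclosan and DMSO or between diclosan and DMSO. With CCPB, Ggt1, Epcam and Sox9 rose and Cd24, Vim and Afp fell. The changes were small, from a fold of 0.687 for Cd24 to a fold of 1.34 for Ggt1. Over all 20359 genes or transcripts tested, 28.3% passed the same threshold between CCPB and DMSO (adjusted p under 0.05, limma with Benjamini-Hochberg adjustment over all genes). None of these 6 calls held once the slide was added to the model.

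The 5′ ends of the genes that moved most with CCPB are shown here for orientation, the first pair for genes that rose and the second pair for genes that fell. Each sequence is the RefSeq promoter in the rat assembly GRCr8, 250 bases before to 50 bases after the gene start, written 5′ to 3′ on the strand of the gene. Epcam lies at chr6:12649629-12649928 and Ggt1 at chr20:13095055-13095354, both on the minus strand. Cd24 lies at chr20:48656227-48656526 and Vim at chr17:81577011-81577310, both on the plus strand. Capitals mark matches to the motifs listed after the sequences.
Epcam: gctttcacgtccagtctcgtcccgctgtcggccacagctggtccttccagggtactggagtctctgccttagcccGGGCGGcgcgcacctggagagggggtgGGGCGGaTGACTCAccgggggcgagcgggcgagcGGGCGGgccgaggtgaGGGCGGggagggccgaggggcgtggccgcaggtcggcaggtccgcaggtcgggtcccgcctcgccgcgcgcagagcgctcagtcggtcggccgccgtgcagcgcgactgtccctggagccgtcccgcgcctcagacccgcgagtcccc
Ggt1: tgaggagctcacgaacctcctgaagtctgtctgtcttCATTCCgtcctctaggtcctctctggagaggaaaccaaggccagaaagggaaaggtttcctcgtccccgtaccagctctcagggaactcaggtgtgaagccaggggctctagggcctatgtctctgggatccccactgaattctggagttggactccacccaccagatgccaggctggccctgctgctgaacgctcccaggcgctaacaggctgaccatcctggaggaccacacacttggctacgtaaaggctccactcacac
Cd24: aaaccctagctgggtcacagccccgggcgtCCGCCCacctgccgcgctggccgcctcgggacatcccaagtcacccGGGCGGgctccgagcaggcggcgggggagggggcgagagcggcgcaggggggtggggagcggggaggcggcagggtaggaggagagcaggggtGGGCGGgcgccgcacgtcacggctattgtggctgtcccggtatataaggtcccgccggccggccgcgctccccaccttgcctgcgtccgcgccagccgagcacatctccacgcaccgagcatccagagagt
Vim: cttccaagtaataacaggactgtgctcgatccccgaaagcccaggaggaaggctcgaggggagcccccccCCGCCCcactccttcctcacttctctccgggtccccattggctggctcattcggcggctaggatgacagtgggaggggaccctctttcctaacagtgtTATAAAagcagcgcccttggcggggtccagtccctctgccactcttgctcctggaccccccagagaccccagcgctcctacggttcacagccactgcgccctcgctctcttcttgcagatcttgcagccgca

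Both strands were searched, and the share of all 33469 rat promoters of this length that hold a match is given for each motif. The TATA box was searched as TATAAA (14.2% of promoters), the GC box as GGGCGG (33.1%), the AP-1 motif as TGANTCA (7.3%) and the TEAD motif as GGAATG (14.2%). The half-site of nuclear receptors was searched as AGGTCA (16.2%), that of HNF1 as GTTAAT (7.5%) and the E-box as CACGTG (6.4%). The Epcam promoter held 4 GC boxes and 1 AP-1 match, and the matches did not overlap each other. Ggt1 held 1 TEAD match on the opposite strand, Cd24 held 3 GC boxes, and Vim held 1 GC box and 1 TATA box. The share of G and C was 75.7% for Epcam, 57.7% for Ggt1, 74.0% for Cd24 and 62.0% for Vim, against a median of 51.7% over all promoters. RefSeq promoter sequences were matched for 6 of the 9 genes. The promoters of Epcam and Ggt1, which rose, had no motif of this set in common. Those of Cd24 and Vim, which fell, had the GC box in common, which Epcam also held. The promoter of Afp, which also fell, held 0 GC boxes, 1 TATA box and 1 HNF1 half-site.

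Ggt1 encodes gamma-glutamyltransferase, the surface enzyme that begins the breakdown of extracellular glutathione and is abundant in fetal liver and in bile ducts. Its brighter probe read -0.94, -1.05 and -1.05 with triclosan, -0.94, -0.99 and -0.90 with diclosan and -0.65, -0.65 and -0.68 with CCPB, against -0.99, -1.15 and -1.13 with DMSO. The CCPB arrays lay above every other array and close together. CCPB exceeded DMSO by 0.42 (95% interval 0.31 to 0.54, adjusted p = 0.00041), a fold of 1.34. Triclosan differed from DMSO by 0.070 (-0.043 to 0.18) and diclosan by 0.14 (0.029 to 0.25, adjusted p = 0.38), and neither passed the threshold. The second Ggt1 probe also read higher with CCPB than with DMSO, by 0.23 (adjusted p = 0.028 over all kept probes and 0.090 over all probes). With the slide in the model this probe read 0.37 higher (adjusted p = 0.30 over all probes). With the slide in the model the difference on the brighter probe was 0.36 (0.16 to 0.56) with an adjusted p of 0.070. Diclosan replicate 3, on the slide of the CCPB arrays, read -0.90 and lay with the other diclosan arrays, 0.24 below the CCPB mean.

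Epcam is an adhesion molecule of bile duct and progenitor cells that mature hepatocytes lack. It was clearly above background on all 12 arrays and read 1.25, 1.51 and 1.52 with triclosan, 1.25, 1.37 and 1.40 with diclosan and 1.62, 1.62 and 1.58 with CCPB, against 1.25, 1.34 and 1.25 with DMSO. The CCPB arrays were the highest, whereas a triclosan array and a diclosan array lay among the DMSO arrays. CCPB exceeded DMSO by 0.33 (0.17 to 0.49, adjusted p = 0.0096), a fold of 1.26. Under the slide model this became 0.24 (-0.057 to 0.54, adjusted p = 0.38). The triclosan difference of 0.15 (-0.013 to 0.31) did not pass the threshold (adjusted p = 0.47).

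Sox9 is a transcription factor of the bile duct lineage. Its brightest probe, A_64_P033298, read -1.43, -1.57 and -1.70 with triclosan, -1.39, -1.51 and -1.37 with diclosan and -1.17, -1.16 and -1.20 with CCPB, against -1.38, -1.41 and -1.57 with DMSO. The CCPB arrays stood above the rest, and the other groups overlapped. CCPB exceeded DMSO by 0.28 (0.11 to 0.44, adjusted p = 0.021), a fold of 1.21. The call was lost without CCPB replicate 1 (adjusted p = 0.056), CCPB replicate 2 (0.062) or DMSO replicate 3 (0.073), with median centring of the arrays (0.065) and with no filter on dim probes (0.071). With the slide in the model the difference was 0.20 (-0.11 to 0.50, adjusted p = 0.50), and with the replicate number and the slide together 0.057 (adjusted p = 0.81).

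The 4 Sox9 probes did not give the same picture. A_44_P221245 read 0.71 higher with CCPB than with DMSO (0.21 to 1.20, adjusted p = 0.091, both from the fit over all probes). Over the kept probes alone its adjusted p was 0.035. With the slide in the model it read 0.26 higher (adjusted p = 0.999 over all probes). A_44_P1157392 read 0.094 higher (-0.38 to 0.57). It was kept through diclosan alone, being above background on 3 diclosan, 1 triclosan, 1 CCPB and 2 DMSO arrays. The dimmest, A_43_P16049, was above background on no array. With triclosan the brightest probe read 0.11 lower than with DMSO (-0.29 to 0.068 over all probes). A_44_P221245 read 0.45 higher (-0.051 to 0.94) and A_44_P1157392 0.22 higher (-0.25 to 0.69), none past the threshold. Each of these intervals included 0, so no direction of the Sox9 difference between triclosan and DMSO was established.

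**Figure D1:**
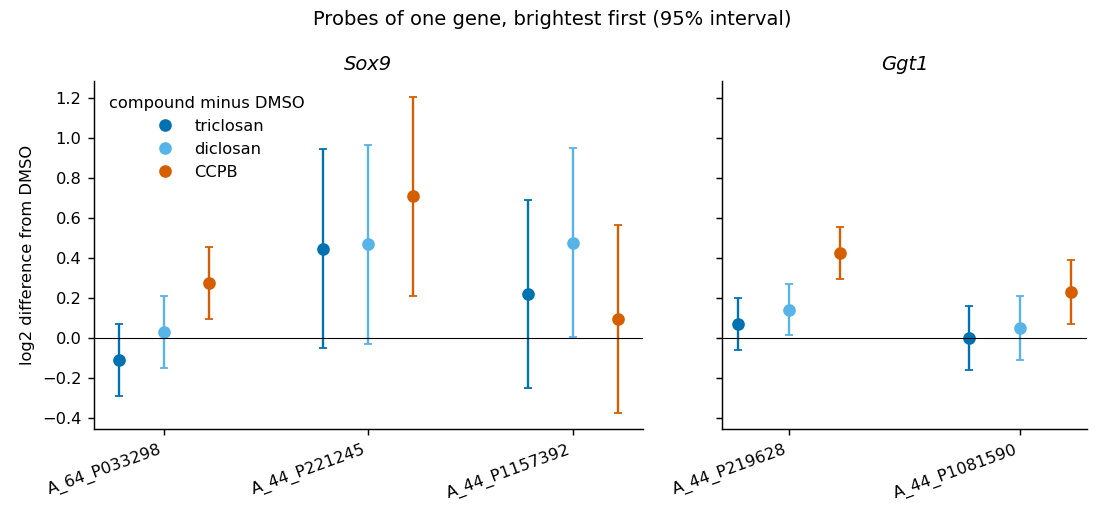
Log2 differences from DMSO for each probe of Sox9 (left) and Ggt1 (right), with probes ordered from bright to dim and points for triclosan, diclosan and CCPB. Bars are 95% intervals from a fit over all probes, and the Sox9 probe that was above background on no array is left out. Both Ggt1 probes read higher with CCPB, by 0.42 and 0.23, and the 3 Sox9 probes by 0.094 to 0.71. The Sox9 probe A_44_P1157392 was above background on 1 triclosan, 3 diclosan, 1 CCPB and 2 DMSO arrays.

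The keratins Krt7 and Krt19 form the intermediate filaments of bile duct cells. Krt7 passed the filter only because it was above background on all 3 DMSO arrays. It was above background on 2 triclosan arrays, 0 diclosan arrays and 2 CCPB arrays. The brighter Krt7 probe read -4.95, -4.49 and -4.52 with triclosan, -5.02, -5.06 and -4.98 with diclosan and -4.78, -4.39 and -3.88 with CCPB, against -4.59, -4.30 and -4.09 with DMSO. The diclosan arrays were the lowest of the 12, and the other groups overlapped. Since no diclosan array was above background and Krt7 entered the tests through DMSO alone, neither a fold nor a p is given for diclosan. CCPB and DMSO differed by -0.022 (-0.50 to 0.46), which leaves room for a change of either sign. Because DMSO admitted Krt7 to the tests, the filter itself could favour DMSO, and this difference is not read as a result. The second Krt7 probe was above background on no array.

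Krt19, read by 1 probe, and Spp1, which encodes the secreted protein osteopontin, were not well above background on any of the 12 arrays. The Spp1 probe was printed 10 times on each array, and its spots read between 2.27 and 9.16 signal units. No fold was computed for either gene. These arrays could not show whether either gene changed below the background.

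**Figure D2:**
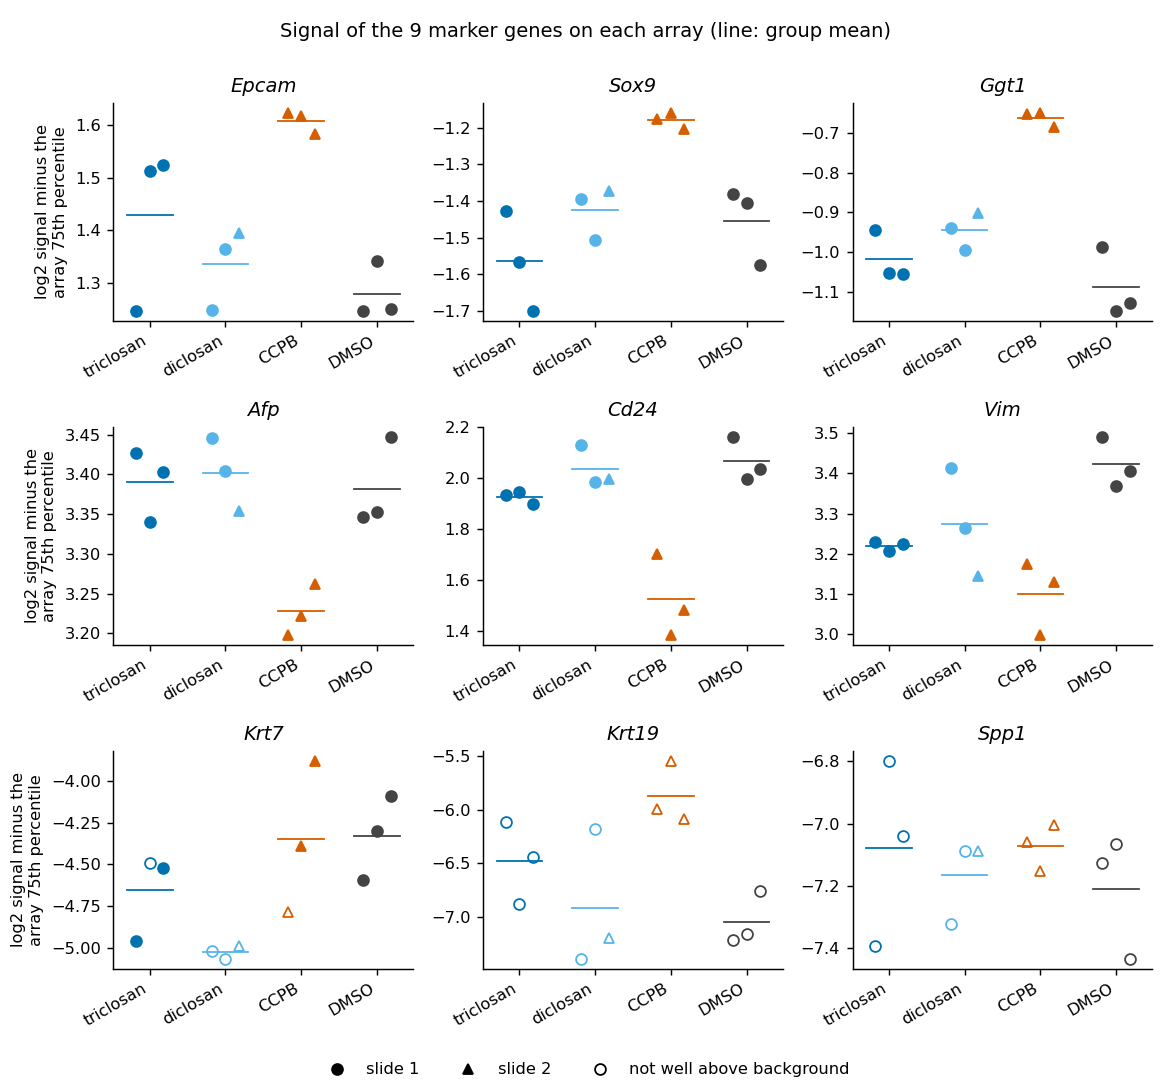
Level of the 9 genes on each array, as log2 signal relative to the 75th percentile of the array, for triclosan, diclosan, CCPB and DMSO with 3 arrays each. Circles are slide 1, triangles slide 2, open symbols are not well above background and lines are group means, and each gene has its own axis. The CCPB arrays lie apart from the DMSO arrays for Epcam, Sox9, Ggt1, Afp, Cd24 and Vim, and Krt19 and Spp1 have open symbols only.

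Cd24 is a glycosylated surface protein of progenitor and regenerating liver cells. It read 1.93, 1.94 and 1.90 with triclosan, 2.13, 1.99 and 1.99 with diclosan and 1.70, 1.39 and 1.48 with CCPB, against 2.16, 1.997 and 2.04 with DMSO. All CCPB arrays were below all other arrays. CCPB was lower than DMSO by a log2 difference of -0.54 (-0.72 to -0.37, adjusted p = 0.0012), a fold of 0.687. With the slide in the model the difference was -0.48 (-0.81 to -0.15, adjusted p = 0.12). Diclosan replicate 3, which shared the CCPB slide, read 1.99 and lay 0.47 above the CCPB mean. The triclosan arrays lay just below the DMSO arrays without overlap, by -0.14 (-0.32 to 0.034, adjusted p = 0.54).

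Vim encodes vimentin, the intermediate filament of mesenchymal cells that hepatocytes on plastic also make. It read 3.23, 3.21 and 3.22 with triclosan, 3.41, 3.26 and 3.14 with diclosan and 3.17, 2.998 and 3.13 with CCPB, against 3.49, 3.37 and 3.41 with DMSO. The DMSO arrays were above every triclosan and CCPB array and overlapped only with diclosan replicate 1. CCPB differed from DMSO by -0.32 (-0.48 to -0.17, adjusted p = 0.0085), a fold of 0.800. Triclosan differed from DMSO by -0.20 (-0.36 to -0.049), on arrays of the same slide, and did not pass the threshold (adjusted p = 0.31).

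Diclosan replicate 3 read 3.14 for Vim, inside the CCPB range, and lay -0.20 from the mean of the other diclosan arrays, which shared slide 1 and differed from each other by 0.15. The distance of replicate 3 was within 0.089 for each of the other 6 genes, and its median size over all genes was 0.106. With the slide in the model, the Vim difference between CCPB and DMSO was -0.13 (-0.36 to 0.11, adjusted p = 0.58). The slide estimate rests on 1 diclosan array against 2.

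Afp, alpha-fetoprotein, is the serum carrier protein of the fetal liver. It read 3.43, 3.34 and 3.40 with triclosan, 3.45, 3.40 and 3.35 with diclosan and 3.20, 3.22 and 3.26 with CCPB, against 3.35, 3.35 and 3.45 with DMSO. The CCPB arrays were lowest, and the other groups overlapped each other. The difference between CCPB and DMSO was -0.15 (-0.25 to -0.061, adjusted p = 0.023), a fold of 0.898. The call was lost without CCPB replicate 1 (adjusted p = 0.073), CCPB replicate 2 (0.064) or DMSO replicate 3 (0.079), with median centring of the arrays (0.17) and with no filter on dim probes (0.10). With the slide in the model it was -0.083 (-0.24 to 0.078, adjusted p = 0.60).

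**Figure D3:**
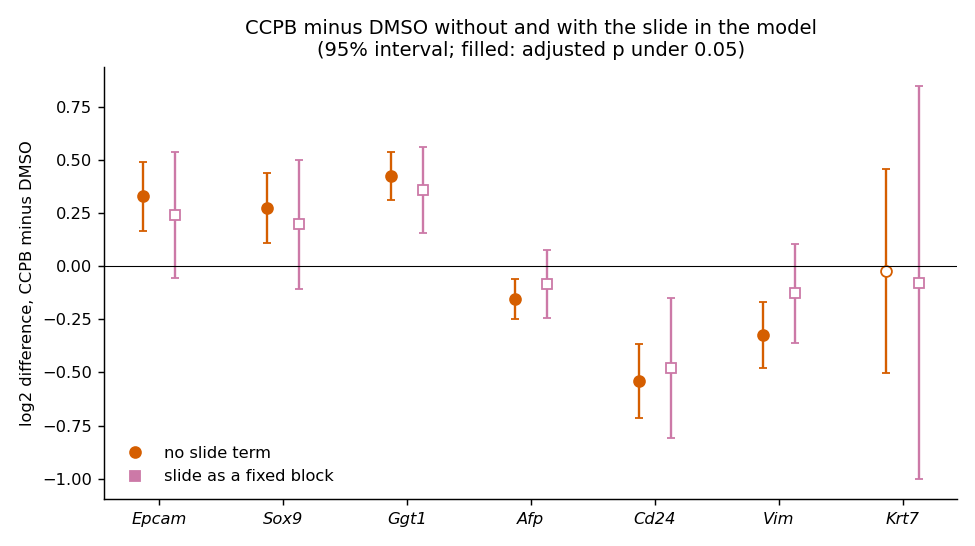
Log2 difference between CCPB and DMSO for the 7 tested genes in the model without (circles) and with (squares) a slide term. Bars are 95% intervals and filled symbols have an adjusted p under 0.05. Every difference keeps its sign with the slide term, and the intervals widen, to -0.81 to -0.15 for Cd24 and 0.16 to 0.56 for Ggt1. Krt7 entered the tests through DMSO alone.

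Counted over the genes, 3 of the 7 tested genes were higher and 3 were lower with CCPB than with DMSO, against 14.1% of all genes higher and 14.2% lower. The CCPB and DMSO arrays did not overlap for 6 of the 7 genes, against 50.1% of all genes. With the slide term 0 of the 7 passed, against 3.4% of all genes. Krt7, which entered the tests through DMSO alone, was the gene that passed under neither model. The bile duct markers Epcam and Sox9 rose, whereas Cd24, Vim and Afp, which are not specific to bile ducts, fell, and Ggt1, found in fetal liver and ducts alike, rose.

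Triclosan and diclosan gave no call among the 7 genes against DMSO by limma. For triclosan, 1 gene (Vim) had an unadjusted p under 0.05, against 11.6% of all genes. For diclosan Ggt1 did, against 10.5% of all genes. Krt7 is not counted here, since no diclosan array detected it and it entered the tests through DMSO alone. Over all genes 0.0639% were called for triclosan (13 genes) and 0.00982% for diclosan (2 genes). The triclosan arrays did not overlap with the DMSO arrays for 2 genes (Cd24 and Vim), against 18.9% of all genes. The diclosan arrays overlapped with them for every gene but Krt7, against 16% of all genes without overlap. Krt7 is not counted as a result here for the same reason. The intervals bounded what could have been missed. For Afp, the most precisely measured gene, the difference from DMSO lay between -0.086 and 0.10 with triclosan. With diclosan it lay between -0.075 and 0.11. The interval was wider for each other gene. With triclosan it was -0.32 to 0.034 for Cd24, -0.36 to -0.049 for Vim and -0.013 to 0.31 for Epcam. For Sox9 it was -0.27 to 0.053 and for Ggt1 -0.043 to 0.18. With diclosan it was -0.10 to 0.22 for Epcam, -0.13 to 0.19 for Sox9 and 0.029 to 0.25 for Ggt1. For Cd24 it was -0.20 to 0.15 and for Vim -0.30 to 0.0054. Such intervals leave room for differences as large as some of those called for CCPB.

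**Figure D4:**
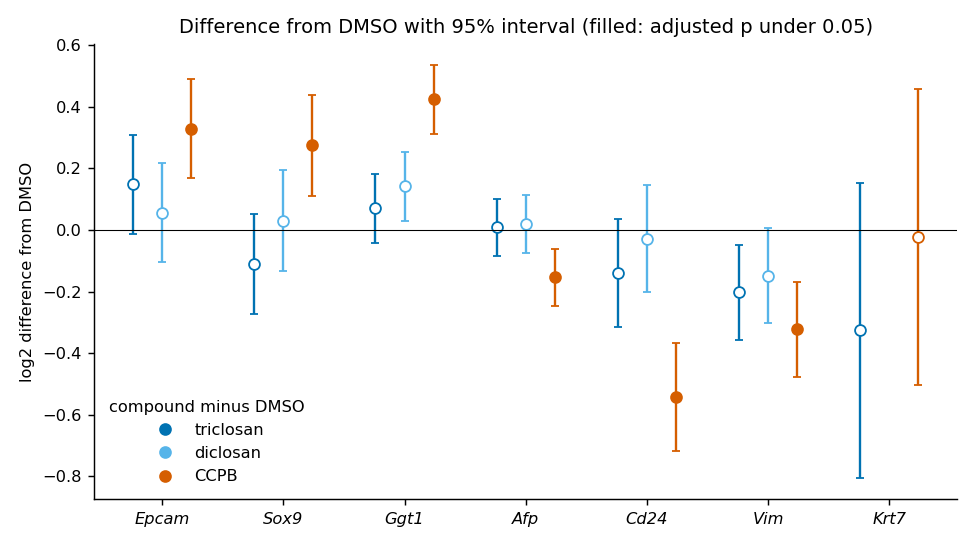
Log2 difference from DMSO of each tested gene with triclosan, diclosan and CCPB, 3 arrays a group. Bars are 95% intervals and filled points have an adjusted p under 0.05 in the model without a slide term. The 6 filled points all belong to CCPB. The widest intervals are those of the dim gene Krt7, which entered the tests through DMSO alone. Krt7 has no point for diclosan, where no array was above background.

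The 3 pairs of compounds were then compared directly, at the same dose and time, with p-values adjusted over all genes within each pair. Triclosan and diclosan, which differ by a chlorine, gave no called gene among the 7 and none over all genes (0%), with 0 of the 7 at an unadjusted p under 0.05, against 6.81% of all genes. Their arrays did not overlap for Cd24, against 9.94% of all genes. They did not overlap for Krt7 either, which is not counted because no diclosan array detected it. The interval of their difference was -0.069 to 0.25 for Epcam, -0.30 to 0.023 for Sox9, -0.18 to 0.041 for Ggt1, -0.10 to 0.083 for Afp, -0.29 to 0.063 for Cd24 and -0.21 to 0.10 for Vim. For Krt7, detected on 2 triclosan arrays and on 0 diclosan arrays, no difference is given. These intervals leave room for differences as large as some of those called for CCPB.

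Triclosan and CCPB, which differ in the hydroxyl group and in their chlorines, differed in 4 of the 7 genes, against 20.5% of all genes. Of the genes called in this pair, 46.8% were higher with triclosan, and 35.7% with median centring of the arrays. Sox9 and Ggt1 were lower with triclosan than with CCPB, by -0.39 (-0.55 to -0.22, adjusted p = 0.0074) and -0.35 (-0.47 to -0.24, adjusted p = 0.0020). Cd24 and Afp were higher with triclosan, by 0.40 (0.23 to 0.58, adjusted p = 0.0084) and 0.16 (0.069 to 0.26, adjusted p = 0.026). The Sox9 call was lost when its kept probes were averaged (-0.17, adjusted p = 0.26). The Afp call was lost without triclosan replicate 1 (adjusted p = 0.071), triclosan replicate 3 (0.075), CCPB replicate 1 (0.079) or CCPB replicate 2 (0.071). Epcam, Vim and Krt7 did not pass, with differences of -0.18 (-0.34 to -0.019), 0.12 (-0.035 to 0.27) and -0.30 (-0.78 to 0.18). The arrays did not overlap for 6 of the 7 genes, Krt7 being the exception, against 43.4% of all genes. No gene of the 7 passed with the slide term, against 1.4% of all genes.

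Diclosan and CCPB also differed in 4 of the 7 genes, against 14.3% of all genes. Epcam and Ggt1 were lower with diclosan than with CCPB, by -0.27 (-0.43 to -0.11, adjusted p = 0.033) and -0.28 (-0.39 to -0.17, adjusted p = 0.0057), and Cd24 and Afp were higher, by 0.51 (0.34 to 0.69, adjusted p = 0.0026) and 0.17 (0.080 to 0.27, adjusted p = 0.023). Sox9 lay just outside the threshold at -0.25 (-0.41 to -0.081, adjusted p = 0.052). For Krt7, detected on 0 diclosan arrays and on 2 CCPB arrays, no difference is given. The arrays overlapped for Vim and did not for Epcam, Sox9, Ggt1, Afp and Cd24, against 32.3% of all genes without overlap. They did not overlap for Krt7 either, which is not counted because no diclosan array detected it. With the slide term 0 of the 7 passed, against 4.9% of all genes. Vim differed by 0.17 (0.019 to 0.33, adjusted p = 0.12), and without diclosan replicate 3 by 0.24 with an adjusted p of 0.024.

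This pair is the comparison with CCPB that can be made within a slide, with diclosan replicate 3 alone against the 3 CCPB arrays and its spread taken to be that of the CCPB arrays. On slide 2, Cd24 was 0.47 higher (0.073 to 0.87, adjusted p = 0.24), Ggt1 was -0.24 from CCPB (-0.38 to -0.094, adjusted p = 0.17), and Epcam was -0.21 from it (-0.36 to -0.066, adjusted p = 0.20). Vim differed by 0.043 (-0.21 to 0.29). These 4 arrays also entered the comparison over both slides, so the values are not an independent repeat of it. None of the 7 passed within the slide, and 0 of all genes did. Epcam lost its call whichever of diclosan replicates 1 and 2 or the CCPB replicates was left out (adjusted p between 0.071 and 0.12), and Afp lost it without diclosan replicate 1 (0.087) or 2 (0.066) or CCPB replicate 1 (0.073) or 2 (0.072). The count of 4 became 2 without diclosan replicate 1, diclosan replicate 2 or CCPB replicate 2, and 6 without diclosan replicate 3. Over all genes the count of 2907 became 1651, 1806, 1795 and 5432 in these settings, in that order.

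Around these genes, lists of related genes were counted in the same fits. Over all genes 14.1% were higher and 14.2% lower with CCPB than with DMSO, 3.4% passed in either direction with the slide term, and the median difference was 0.0040 without that term and -0.0058 with it. No gene of any list passed between triclosan and DMSO or between diclosan and DMSO. In the list of bile duct epithelium markers, 20 of 29 genes were tested, Epcam, Sox9 and Krt7 among them. With CCPB 5 rose and 6 fell, and the median difference was -0.029, or -0.079 with the slide term. Apart from Epcam and Sox9, the calls with the smallest p were those of Slc10a2, the apical bile acid transporter of cholangiocytes, at -0.79 (adjusted p = 4.7e-05), the laminin chain Lamb3 at -0.26 (0.0011), the transcription factor Onecut1 at -0.43 (0.0029) and the membrane protease St14 at 0.31 (0.0046). With the slide term 1 rose and 1 fell, St14 at 0.49 and Slc10a2 at -0.72 (adjusted p = 0.015 each). Called genes of this list thus lay on both sides. The 11 calls became 7 without CCPB replicate 1 or DMSO replicate 3, and 6 with median centring. Over all genes the 5762 calls became 3997, 3877 and 3324 in these settings, in that order.

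In the Notch pathway list, 8 of 17 genes were tested, and 1 rose and 3 fell with CCPB (14.1% and 14.2% over all genes), with a median of -0.17, or -0.11 with the slide term. The ligand gene Jag1 differed by -0.86 (adjusted p = 8.8e-05), the receptor gene Notch1 by -0.48 (0.0014) and the glycosyltransferase gene Rfng by -0.15 (0.046), whereas the target gene Hes1 rose by 0.35 (0.024). The 4 calls became 2 without CCPB replicate 2, DMSO replicate 1 or DMSO replicate 2. Over all genes the 5762 calls became 3794, 3722 and 3730 without these arrays, in that order. Hes1 lost its call without each of them (adjusted p up to 0.080). Rfng lost its call without any 1 of the CCPB and DMSO arrays (adjusted p up to 0.15). Jag1 alone passed with the slide term, at -0.83 (adjusted p = 0.022). In the list of YAP and TEAD targets and partners, 11 of 15 were tested, and 0 rose and 7 fell (14.1% and 14.2% over all genes), with a median of -0.33, or -0.18 with the slide term. Ankrd1, a target of YAP in many cell types, read -0.71 (adjusted p = 0.00011), and it was the member of this list that also passed with the slide term, at -0.55 (0.029). Ajuba at -0.33 (0.0010), the kinase gene Lats2 at -0.33 (0.0012) and the angiomotin gene Amotl2 at -0.38 (0.0023) followed.

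Among oncofetal and fetal liver genes, a list that holds Ggt1, Afp, Epcam and Cd24, 12 of 18 were tested, and 3 rose and 3 fell with CCPB (14.1% and 14.2% over all genes). The median was -0.079, and with the slide term it had the other sign, 0.028, and none of the list passed. The hexokinase gene Hk1, counted among those that fell, entered the tests through the 3 DMSO arrays alone and was well above background on no CCPB array, so its p is not given. Its measured means were -5.80 with CCPB and -4.47 with DMSO, and no fold is given for the same reason. Its call was lost in 7 of 17 alternatives.

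The cytoskeletal and mesenchymal list, which holds Vim, had 29 of 32 genes tested, and 1 rose and 16 fell with CCPB (14.1% and 14.2% over all genes), with a median of -0.13, or -0.10 with the slide term. The tubulin gene Tuba1a at -0.73 (adjusted p = 1.6e-05), the hyaluronan receptor Cd44 at -0.75 (4.7e-05), the annexin gene Anxa1 at -0.67 (0.00045) and the calcium-binding protein gene S100a4 at -0.33 (0.0012) led it. These 4 genes also passed with the slide term (adjusted p between 0.0054 and 0.045), which Vim did not. In the opposite direction, 17 of the 31 tested mature hepatocyte genes, of 33 listed, rose with CCPB and 2 fell (14.1% and 14.2% over all genes), with a median of 0.15, or 0.18 with the slide term. Among them Apob read 0.37 (adjusted p = 0.00014), the urea cycle enzyme gene Arg1 0.47 (0.00018), the xenobiotic receptor gene Nr1i3 0.81 (0.00020) and the bile acid transporter gene Slc10a1 0.53 (0.00021) higher. With the slide term 6 of this list rose and 0 fell, against 3.4% of all genes in either direction. The 17 calls of the cytoskeletal list became 11 without CCPB replicate 3 and 8 with median centring. Over all genes the 5762 calls became 3663 and 3324 in these settings. The 19 calls of the hepatocyte list became 11 without CCPB replicate 2, 12 without DMSO replicate 1 and 10 with median centring. The all-gene calls were then 3794, 3722 and 3324, in that order.

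**Figure D5:**
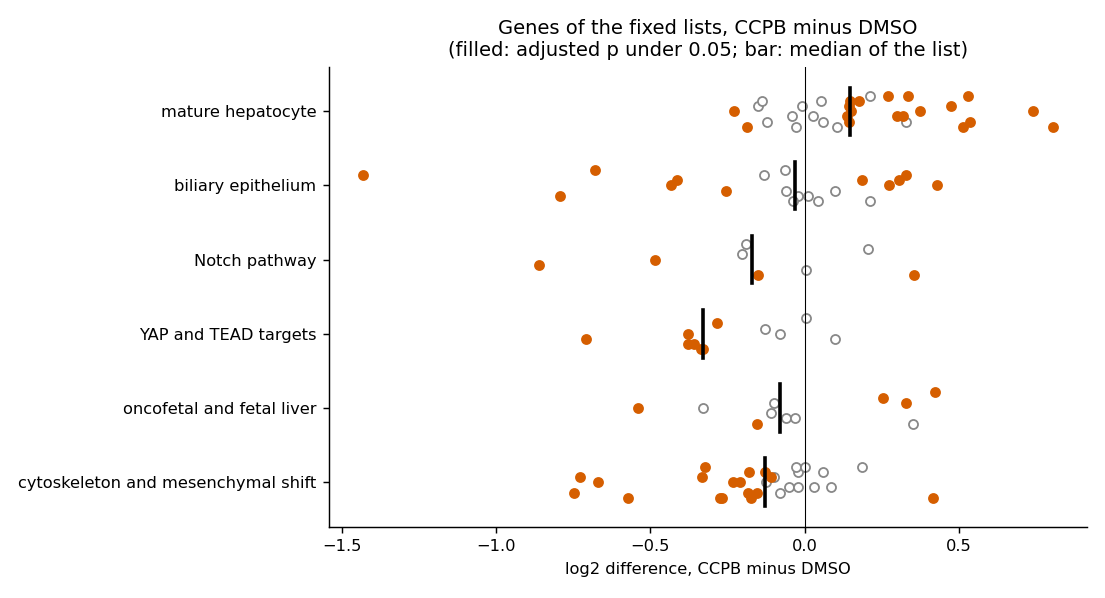
Log2 difference between CCPB and DMSO (x axis) of each tested gene of 6 lists, one row a list, with the median of the list as a bar and filled points for an adjusted p under 0.05 without a slide term. Hk1, above background on no CCPB array, has no point. The mature hepatocyte genes lie mostly right of 0 with a median of 0.15, and the YAP and TEAD list lies mostly left with a median of -0.33.

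Cells other than hepatocytes can carry Vim, so markers of the other liver cell types were read on the same arrays. In this bulk RNA, fewer cells of a type and less RNA per cell cannot be told apart. For stellate cells and fibroblasts, 9 of 14 listed genes were tested, and the signals of those 9, each relative to the 75th percentile of its array, summed to 16.4 to 17.1 with triclosan, 16.3 to 18.5 with diclosan and 12.1 to 13.1 with CCPB, against 17.7 to 18.8 with DMSO. A sum weights each probe by its brightness, and Tagln made up 58.8% to 61.7% of it with CCPB and 65.3% to 71.0% with DMSO. Of the 9 genes 1 rose and 2 fell with CCPB (14.1% and 14.2% over all genes), and the median difference was -0.16, or -0.035 with the slide term. Tagln, an actin-binding protein gene of smooth muscle and activated stellate cells, read -0.72 with CCPB relative to DMSO (adjusted p = 0.00014) and the protease inhibitor gene Timp1 -0.26 (0.0027), whereas the actin gene Acta2 rose by 0.42 (0.036), a call lost without any CCPB replicate or DMSO replicate 1 or 3 (adjusted p up to 0.11). With the slide term Tagln passed at -0.59 (adjusted p = 0.038), whereas Timp1 (0.19) and Acta2 (0.57) did not. Rgs5, a pericyte gene named here because it passed with that term alone, differed by 0.38 without it (adjusted p = 0.12) and by 1.002 with it (0.034). The defining genes Dcn, Lum, Lrat and Postn were above background on no array. The part of these cells in the Vim difference was not tested.

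For macrophages 5 of 13 listed genes were tested, and their signals summed to 5.19 to 6.01 with triclosan, 5.73 to 6.20 with diclosan and 5.79 to 6.25 with CCPB, against 5.04 to 5.63 with DMSO. Of the 5 genes 1 rose and 0 fell with CCPB (14.1% and 14.2% over all genes). The median difference from DMSO was 0.042 with triclosan, 0.51 with diclosan and 0.20 with CCPB. With the slide term it was 0.67 with diclosan and 0.64 with CCPB, and no gene passed. The called gene was the lysozyme gene Lyz2, which made up 79.5% to 85.8% of the sum over the 12 arrays. It read 0.19 higher with CCPB (adjusted p = 0.049), a call lost without any CCPB replicate or DMSO replicate 1 or 2 (adjusted p up to 0.15). Marco, Adgre1 and Cd5l were above background on no array. For endothelial cells 4 of 11 were tested, and the sums were 7.56 to 8.14 with triclosan, 8.06 to 9.70 with diclosan and 9.48 to 9.83 with CCPB, against 8.15 to 8.60 with DMSO. Vwf alone made up 95.7% to 97.0% of these sums, so they follow that gene. It was called at 0.21 with CCPB (adjusted p = 0.039) and read -0.026 with the slide term. The call was lost without any 1 of the CCPB and DMSO arrays (adjusted p up to 0.11). Of the 4 genes 1 rose and 0 fell with CCPB (14.1% and 14.2% over all genes). Their median difference from DMSO was -0.053 with triclosan, 0.028 with diclosan and 0.22 with CCPB, or 0.25 for CCPB with the slide term. Pecam1 and Lyve1 were above background on no array. The part of these cell types in the differences of Epcam, Sox9, Ggt1, Afp and Cd24 was not tested.

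Finally, the named genes whose profiles over the 12 arrays lay closest to those of the called genes were listed, by the root mean square of the difference between centred log2 profiles. Nearest to Epcam were Lnc-hc (0.050), Gde1 (0.054) and Ugdh (0.057), against a root mean square of 0.145 for the Epcam profile itself. Sox9 was nearest to Hps1 (0.063), Slc26a1 (0.066) and Cds1 (0.067), with 0.160 for its own profile. For Ggt1 they were Fam220a (0.039), Lyrm7 (0.043) and Rab20 (0.056), against 0.168. The nearest gene to Ggt1 matched it more closely, relative to the size of its own profile, than the nearest genes to Epcam and Sox9 did. For Cd24 the nearest were Cyld (0.060), Prc1 (0.067) and Cttnbp2nl (0.072), against 0.232, for Vim Tyro3 (0.054), Crip2 (0.055) and Txnrd2 (0.057), against 0.136, and for Afp Emd (0.018), Dynlt1 (0.022) and Hat1 (0.023), against 0.0804. None of the 9 genes was among the nearest of another.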

How the data were processed

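Agilent one-colour arrays of 12 RNA samples (3 per group) were analysed, labelled with Cy3, per the labels' protocols. Per the file headers, spot intensity in the deposited scanner files had been background-subtracted and detrended by Feature Extraction 10.7.1.1, with no scaling between arrays. Detrending narrows the range of dim spots. The percentile scaling used here would shift all values if many bright transcripts changed. The authors' own value table, a linear intensity per probe divided by about the array's 75th percentile (medians 0.048 to 0.055) with an unstated tool, served as an alternative. It had 0 columns of other samples.

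Non-uniform (1 to 8 per array) and population outlier spots (272 to 363 per array) were left out. Remaining spots were averaged per probe as log2 values, less the array's 75th percentile. Of 45598 probes, 21229 were named by matching RefSeq transcripts to a GRCr8 table, used for names only. A probe was kept when above background on all 3 arrays of a group (24254 probes), and the brightest kept probe of a gene was used, giving 20359 genes or transcripts, 10685 of them named.

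One limma model (version 3.58.1, R 4.3.3, lmFit and eBayes, two-sided) held all arrays, with Benjamini-Hochberg adjustment over all genes of a comparison and a threshold of 0.05. Intervals are 95% and unadjusted, with a median half-width of 0.145 log2 units, and precision is limited by having 3 arrays in a group. The procedure was tested on simulated data that held no slide effect, so that test does not bear on the slide. Alternatives were the slide as a block, single slides, the replicate number as a block, other normalizations, filters and probe rules, and leaving out each array.

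The genes and lists were chosen with earlier results of these data known. From each list, up to 4 other genes with the smallest p among the called genes are named, except 1 that is not reported here. For each gene called against DMSO, the 3 named genes with the nearest profile are given. The planned normexp correction on mean signals was run on median signals, as the files used here give those.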

Additional observations from a re-analysis of the deposited data

How the results depend on the processing

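The slide was the choice that changed the counts of the 7 genes most. With the slide as a fixed block, 0 of the 7 genes passed between CCPB and DMSO, 0 of 7 when triclosan was set against CCPB and 0 when diclosan was, and within slide 2 alone 0 passed between diclosan and CCPB. The replicate numbers did not pair the arrays, since correlations of same-numbered deviations from the group means lay between -0.16 and 0.12 and 2 of 12 arrays correlated best with an array of their own number. Blocking on the replicate number left 6 of 7 called between CCPB and DMSO (5512 over all genes). It gave 6 between diclosan and CCPB (2858 over all genes), Krt7 among them, which no diclosan array detected. Blocking on the replicate number and the slide together left 0 for CCPB against DMSO and 0 for triclosan against CCPB. For diclosan against CCPB it left 1 (Cd24). The count of 4 between diclosan and CCPB was 2 with median centring and 2 with no filter on dim probes. Over all genes the 2907 calls of this pair became 1372 and 1272. Leaving out each array in turn gave 4 to 6 called genes between CCPB and DMSO (3663 to 3997 over all genes). It gave 3 to 4 between triclosan and CCPB (2115 to 2877) and 2 to 6 between diclosan and CCPB (1651 to 5432). The causes were not tested. Of 778 comparisons of a single gene with its value under an alternative, 704 kept their side of the threshold, 62 lost a call, 12 gained one and 0 of the called values reversed. Uncalled values changed sign in 20 of them. Of 485 such comparisons for the 27 named genes of the lists, 398 kept their call and 85 lost it, and Vwf reversed to -0.026 with the slide as a block and to -0.083 with the replicate number and the slide. Over all genes, the count of calls ranged over the alternatives from 0 to 51 for triclosan against DMSO (13 as reported), 0 to 10 for diclosan against DMSO (2), 301 to 6321 for CCPB against DMSO (5762), 0 to 2 for triclosan against diclosan (0), 12 to 5076 for triclosan against CCPB (4180) and 0 to 5432 for diclosan against CCPB (2907). The normexp correction on median signals, and keeping the population outlier spots, were chosen after seeing the data. Signal over background limits Krt7, and leaves Krt19 and Spp1 without a value.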
